A study of Mus musculus with 9 samples.

Results

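Fatty acid activation and beta-oxidation were followed through 34 listed mouse genes, of which 31 could be matched to a probe set annotated to that single gene, among 18193 genes measured in all. The list was drawn up by known function, from the enzymes that load fatty acids onto coenzyme A to the mitochondrial and peroxisomal oxidation spirals and the genes that govern their use. For a gene with several probe sets the one with the highest mean over 9 arrays was taken, and all 31 were above the background level of the arrays in at least 1 array of every group. Acsl1, Cpt1b and Ucp2 had no such probe set here and were not analysed. Of the 31 genes 20 encode mitochondrial proteins, 6 peroxisomal proteins, and 3 acyl-CoA synthetases of the outer mitochondrial membrane, endoplasmic reticulum or lipid droplets, while Crat and Eci2 act in both organelles.

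The cells were 3T3-L1 adipocytes, fat cells differentiated in culture from a clonal mouse fibroblast line, and the groups were given linoleic acid (LA, the control), conjugated linoleic acid (CLA) or phenformin, with 3 arrays each that the labels call biological replicates. CLA is an isomer of LA with adjacent, conjugated double bonds in place of methylene-interrupted ones. The biguanide phenformin blocks respiratory complex I, and cells treated with it activate the energy sensor AMPK. Dose, duration, the CLA isomer and the fatty acid in the phenformin dishes do not appear among the labels, so the treatments cannot be called matched in dose or time. Because the line is a single clone grown in dishes, and nothing says whether replicates came from separate cultures, the p-values measure the spread between these arrays. In bulk RNA, fewer cells of a type and less RNA per cell cannot be told apart.

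Long-chain fatty acids enter oxidation as acyl-CoA. The carnitine shuttle carries them into mitochondria, where CPT1 is the controlled step and is inhibited by malonyl-CoA, and each turn of the spiral then dehydrogenates, hydrates, dehydrogenates again and cleaves the chain. The electron transfer flavoprotein passes electrons from the acyl-CoA dehydrogenases to the respiratory chain. Peroxisomes shorten very long and branched chains with their own enzymes. White adipocytes mainly store fatty acids, and oxidation genes in them answer to the PPAR family of fatty acid receptors and to fasting signals.

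All values are log2 expression values, so a difference of 1 is a 2-fold difference. Levels are mean ± SD and differences are ± SE, with n = 3 arrays per group. Differences were called at a limma adjusted p under 0.05 (Benjamini-Hochberg over 45037 probe sets, all 9 arrays in a single fit). The comparisons of CLA and of phenformin with LA share the LA arrays. Of 5 measured adipocyte markers Cidec rose in both treatments (0.98 ± 0.16 and 0.77 ± 0.16) and Adipoq, Fabp4, Lpl and Cebpa were not called. Adipoq, Fabp4 and Lpl lay between 13.35 and 14.62 on every array, near the highest value of each array (13.57 to 14.72). Whether a change could still show at such levels was not tested. Of the 5 measured preadipocyte markers, 4 rose in CLA and 3 in phenformin, Cd34 was at background throughout, and their summed log2 level ran from 35.38 to 38.50 in LA, 43.83 to 45.72 in CLA and 42.41 to 44.26 in phenformin. Of 6 macrophage markers Cd14 rose in CLA, and Cd14 and Adgre1 fell in phenformin, while Adgre1, Ptprc and Itgam stayed under 4 on all arrays. Among 5 endothelial markers 0 were called, and among 6 muscle markers Acta1 rose in both treatments. The array controls also moved with the groups, with a beta-actin 3' minus 5' difference of 1.27 ± 0.39 in LA, 0.52 ± 0.10 in CLA and 0.56 ± 0.09 in phenformin, and one for pyruvate carboxylase of 5.36 ± 0.43, 4.03 ± 0.63 and 3.94 ± 0.60. The hybridization controls were at 9.93 ± 0.21 in LA, 11.94 ± 0.82 in CLA and 10.95 ± 0.50 in phenformin. The part of these shifts in the results below was not tested, beyond a fit that takes the pyruvate carboxylase difference of each array as a covariate (called the RNA-end covariate below).

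LA replicate 3 stood apart before any comparison. It had the narrowest range of values, its top 1% of values beginning at 11.62 where those of the remaining arrays began at 12.18 to 12.45, and for 22 of the 31 genes it was the lowest of the LA arrays. Its value was below the mean of LA replicates 1 and 2 by a median of 0.25 over the 31 genes, 0.05 over all genes and 0.52 over the 1685 genes with a mean level of at least 10. As 19 of the 31 genes are that bright, values without this array or after quantile normalization, which gives all arrays the same range, are given below where they bear on a call or a sign.

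The genes did not move as a block. Against LA, CLA raised 5 of the 31 (Acsl4, Cpt1a, Acadl, Pdk4 and Acot2) and lowered 3 (Acox3, Ehhadh and Hsd17b4), against 12.6% of all genes called higher and 7.58% called lower. Phenformin raised 7 (Acsl3, Acsl4, Acadl, Echs1, Decr1, Eci1 and Acot2) and lowered only Ehhadh, against 13.7% and 5.11% of all genes. The median difference of the 31 genes was 0.10 in CLA (0.05 over all genes) and 0.27 in phenformin (0.01 over all genes). Without LA replicate 3 these medians were -0.11 and 0.15, and after quantile normalization -0.23 and -0.04. Quantile normalization also changed the counts to 4 higher and 8 lower in CLA and to 3 higher and 6 lower in phenformin. Of all 18193 genes it called 1889 higher and 2305 lower in CLA, and 1655 higher and 1992 lower in phenformin. Among all called genes the share of higher calls went from 62.5% to 45.0% in CLA and from 72.9% to 45.4% in phenformin. The sign of many small differences thus turned with the scaling, whereas Cpt1a, Pdk4 and Acot2 in CLA and Acot2 in phenformin were called higher under each of the 17 alternatives.

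**Figure D1:**
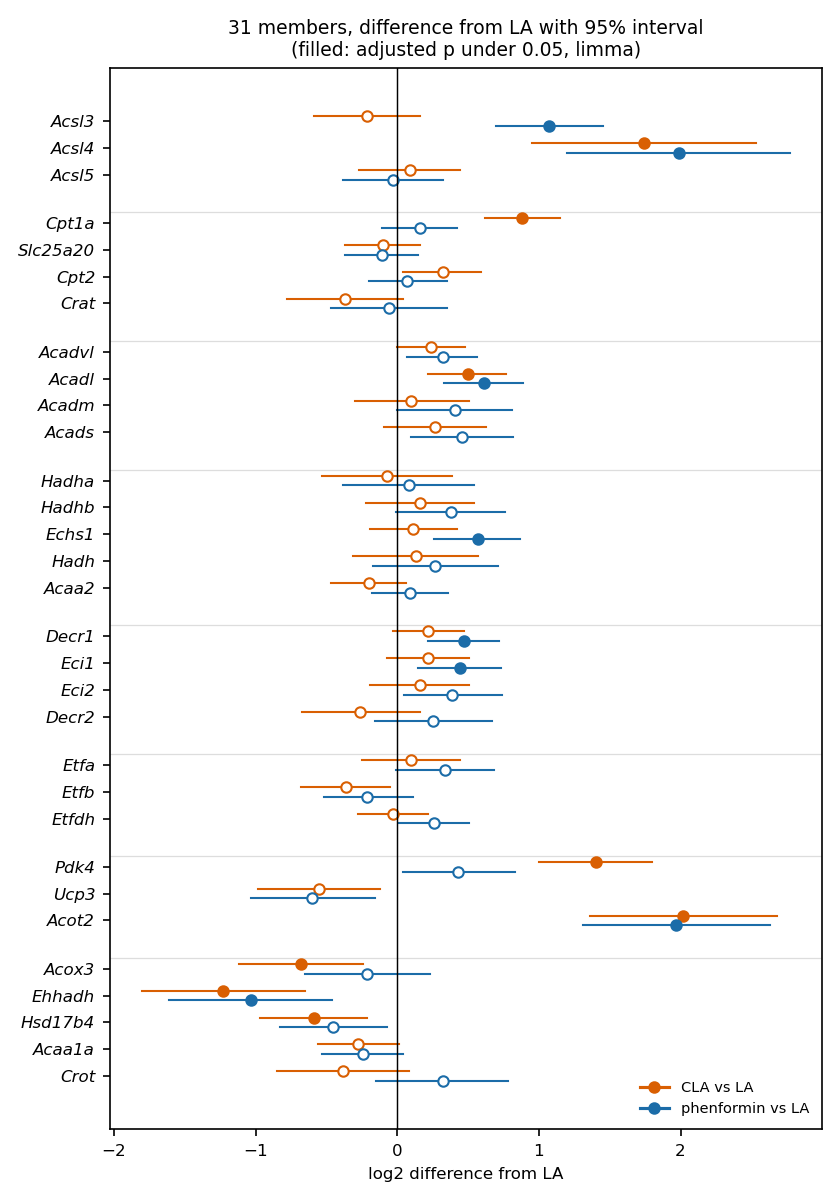
Log2 difference from LA (x axis) of the 31 genes (y axis, grouped by role) in CLA (orange) and phenformin (blue), with 95% intervals from limma; filled points had an adjusted p under 0.05. Acsl4 and Acot2 lie between 1.74 and 2.02 in both treatments, Cpt1a and Pdk4 are filled only for CLA, and Ehhadh lies near -1 in both.

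Activation is the step that attaches coenzyme A to a fatty acid, and its synthetases differ in chain preference and location. Acsl4, which prefers arachidonic acid and other polyunsaturated fatty acids, was at 9.08, 8.86 and 7.44 in LA, at 10.18, 9.91 and 10.52 in CLA and at 10.27, 10.58 and 10.49 in phenformin. All 6 treated arrays lay above all 3 LA arrays, and LA replicate 3 was far below the other two. Acsl4 rose by 1.74 ± 0.35 in CLA (3.34-fold, adjusted p = 0.00714) and by 1.99 ± 0.35 in phenformin (3.96-fold, adjusted p = 0.0036). Without LA replicate 3 the rises were 1.23 ± 0.18 and 1.48 ± 0.18 (adjusted p = 0.00163 and 0.000681), and with the RNA-end covariate they were 1.89 and 2.15 and missed the threshold (0.0636 and 0.0556). Its other probe sets gave 1.76 and 2.20 in CLA and 2.17 and 3.13 in phenformin, all called.

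Acsl3, the synthetase of the endoplasmic reticulum and of forming lipid droplets, behaved differently. Its values were 8.82, 8.54 and 8.58 in LA, 8.38, 8.14 and 8.78 in CLA and 9.56, 9.88 and 9.72 in phenformin. The phenformin arrays lay above all others, and LA and CLA overlapped. Acsl3 rose by 1.07 ± 0.17 in phenformin (2.10-fold, adjusted p = 0.00181), while its difference in CLA was -0.21 ± 0.17 (95% interval -0.59 to 0.16, adjusted p = 0.468). Fitted with the RNA-end covariate, the phenformin difference was 0.86 ± 0.27 and no longer passed (adjusted p = 0.0853). A further probe set gave 1.14 in phenformin and 0.11 in CLA, and one near background 0.20 and 0.19. Acsl5, a mitochondrial synthetase, differed from LA by 0.09 ± 0.16 in CLA and -0.03 ± 0.16 in phenformin and was not called. The promoters of these 2 synthetases are shown because one rose in both treatments and the other in phenformin alone by the calls against LA, as 250 bases ending at the base before the RefSeq start (build GRCm38.p6), at chrX:142390536-142390785 on the minus strand and chr1:78657575-78657824 on the plus strand; capitals mark the core TGACG of cAMP response elements on either strand, which is found in that of Acsl4. G and C make up 70.8% of the Acsl4 window and 75.6% of the Acsl3 window.
Acsl4: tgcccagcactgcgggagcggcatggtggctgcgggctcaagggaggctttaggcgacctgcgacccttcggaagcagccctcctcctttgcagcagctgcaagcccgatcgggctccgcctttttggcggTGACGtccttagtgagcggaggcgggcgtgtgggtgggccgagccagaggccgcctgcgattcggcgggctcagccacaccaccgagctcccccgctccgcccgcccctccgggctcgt
Acsl3: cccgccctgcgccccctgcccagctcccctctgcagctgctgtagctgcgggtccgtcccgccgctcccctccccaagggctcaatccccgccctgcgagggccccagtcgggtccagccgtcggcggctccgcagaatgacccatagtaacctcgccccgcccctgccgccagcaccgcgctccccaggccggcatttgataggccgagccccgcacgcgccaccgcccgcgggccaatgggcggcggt

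In the carnitine shuttle the mRNA for the controlled step was higher in CLA, and CPT1 activity was not measured. Cpt1a, the liver-type carnitine palmitoyltransferase of the outer mitochondrial membrane, was at 7.93, 7.94 and 7.70 in LA, at 8.77, 8.57 and 8.87 in CLA and at 7.99, 7.98 and 8.07 in phenformin. The CLA arrays lay apart from all 6 others. Cpt1a rose by 0.88 ± 0.12 in CLA (1.84-fold, adjusted p = 0.000669), and its difference in phenformin was 0.16 ± 0.12 (95% interval -0.11 to 0.42, adjusted p = 0.448). Over the 17 alternatives the adjusted p for CLA ranged from 0.000681 to 0.0245. A dimmer Cpt1a probe set was also called in CLA (0.80 ± 0.23, adjusted p = 0.0372), and the dimmest, near background, was not (0.54 ± 0.27, adjusted p = 0.227). The other shuttle genes were not called in either treatment: the inner-membrane transferase Cpt2 differed by 0.32 ± 0.12 in CLA (adjusted p = 0.117) and 0.07 ± 0.12 in phenformin, and the translocase Slc25a20 by -0.10 ± 0.12 and -0.11 ± 0.12. After quantile normalization Cpt2 was at 0.01 in CLA and Slc25a20 at -0.37 ± 0.10 in phenformin (called lower, adjusted p = 0.0258). The Cpt1a window, at chr19:3323051-3323300 on the plus strand, holds the nuclear receptor core AGGTCA on its opposite strand, in capitals.
Cpt1a: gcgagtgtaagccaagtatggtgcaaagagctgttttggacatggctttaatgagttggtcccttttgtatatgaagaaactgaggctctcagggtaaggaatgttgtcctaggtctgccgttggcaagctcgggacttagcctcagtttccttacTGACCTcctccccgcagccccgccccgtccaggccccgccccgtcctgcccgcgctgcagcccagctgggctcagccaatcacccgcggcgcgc

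Crat, the acetyltransferase that buffers acetyl groups as acetylcarnitine, gave a split result. Its brightest probe set was at 10.57, 11.21 and 10.55 in LA, at 10.44, 10.56 and 10.24 in CLA and at 10.91, 10.61 and 10.63 in phenformin, and was not called (-0.37 ± 0.18 and -0.06 ± 0.18 from LA). The 2 dimmer probe sets lay lower on every treated array than on every LA array. They differed by -0.90 ± 0.11 and -1.01 ± 0.13 in CLA (adjusted p = 0.00039 and 0.000455) and by -0.71 ± 0.11 and -0.95 ± 0.13 in phenformin (0.0018 and 0.000773). By the mean of its probe sets Crat was therefore called lower in both treatments. Which transcripts each probe set detects was not examined here.

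The acyl-CoA dehydrogenases open each turn of the spiral, and all 4 had a positive difference from LA in both treatments. Of these only Acadl, the long-chain enzyme of mouse mitochondria, was called. It was at 11.53, 11.63 and 11.34 in LA, at 11.95, 11.85 and 12.19 in CLA and at 12.07, 12.15 and 12.12 in phenformin, with no overlap with LA. Acadl rose by 0.50 ± 0.13 in CLA (1.41-fold, adjusted p = 0.0215) and by 0.61 ± 0.13 in phenformin (1.53-fold, adjusted p = 0.00758). The CLA call was lost without LA replicate 1, LA replicate 3, CLA replicate 1 or CLA replicate 3 (adjusted p = 0.0553, 0.0508, 0.0556 and 0.0557), and after quantile normalization the differences were 0.16 (adjusted p = 0.449) and 0.24 (0.248). In all the CLA call held under 7 of 17 alternatives and the phenformin call under 14, both being lost over the mean of probe sets, where the further probe set is at background (0.275 and 0.171), and with the RNA-end covariate (0.245 and 0.18). Acadvl, for very long chains, differed by 0.24 ± 0.11 and 0.32 ± 0.11, Acads, for short chains, by 0.27 ± 0.16 and 0.46 ± 0.16, and Acadm, for medium chains, by 0.10 ± 0.18 and 0.41 ± 0.18, in CLA and phenformin. None of these 3 passed, with adjusted p from 0.0769 to 0.767, and after quantile normalization Acadvl (-0.09) and Acadm (-0.22) lay on the negative side in CLA and Acadvl (-0.04) in phenformin. Acadm shows how 1 array sets such values: it was at 12.62, 12.62 and 11.94 in LA, and without LA replicate 3 its difference in CLA was -0.12 and in phenformin 0.18.

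The enzymes that complete the turn stayed close to LA. Echs1, the short-chain enoyl-CoA hydratase, was the exception in phenformin, at 11.17, 11.65 and 11.24 in LA against 11.96, 11.84 and 11.96, while CLA lay at 11.40, 11.45 and 11.55. All 3 phenformin arrays were above the LA arrays. It rose by 0.57 ± 0.14 in phenformin (1.48-fold, adjusted p = 0.018) and differed by 0.11 ± 0.14 in CLA (adjusted p = 0.658). This call was lost without LA replicate 1, phenformin replicate 1 or phenformin replicate 3 (0.0711, 0.0663 and 0.0529), after quantile normalization (0.20, adjusted p = 0.411) and with the RNA-end covariate (0.42, adjusted p = 0.299). Hadha and Hadhb, the subunits of the trifunctional protein for long chains, differed by -0.07 ± 0.21 and 0.16 ± 0.17 in CLA and by 0.08 ± 0.21 and 0.38 ± 0.17 in phenformin. A dim probe set of Hadhb was called lower in both treatments (-0.71 ± 0.16 and -0.59 ± 0.16), unlike its 2 bright ones. The hydroxyacyl-CoA dehydrogenase Hadh and the thiolase Acaa2 had 95% intervals of -0.31 to 0.57 and -0.47 to 0.06 in CLA, and -0.17 to 0.71 and -0.18 to 0.36 in phenformin. After quantile normalization Acaa2 was called lower in CLA (-0.47 ± 0.14, adjusted p = 0.0421). On the deposited values its other probe sets disagreed in sign in CLA (0.42 ± 0.15 and -0.46 ± 0.19), and neither was called. A second bright Hadh probe set gave -0.43 ± 0.18 in CLA, against 0.13 ± 0.20 for the brightest, and was not called.

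Unsaturated fatty acids such as LA and CLA need auxiliary enzymes that move or reduce their double bonds. Decr1, the mitochondrial dienoyl-CoA reductase, was at 11.74, 11.82 and 11.62 in LA, at 11.84, 12.05 and 11.96 in CLA and at 12.14, 12.28 and 12.17 in phenformin. Its groups did not overlap, with phenformin highest, and it rose by 0.47 ± 0.11 in phenformin (1.38-fold, adjusted p = 0.0161) but not past the threshold in CLA (0.22 ± 0.11, adjusted p = 0.227). A dimmer Decr1 probe set disagreed, with -0.51 ± 0.13 in CLA (called lower, adjusted p = 0.0249) and 0.08 ± 0.13 in phenformin. Eci1, the mitochondrial enoyl-CoA isomerase, rose by 0.44 ± 0.13 in phenformin (1.35-fold, adjusted p = 0.0458), from 10.24, 10.52 and 10.52 in LA to 10.99, 10.83 and 10.77. That is the phenformin call nearest the threshold among the brightest probe sets of the 31 genes, and it held under 6 of 17 alternatives. It was lost without LA replicate 1 or 2, CLA replicate 1, or any 1 of the phenformin replicates (adjusted p = 0.0648 to 0.162), with the replicate number as a block (0.0651) and after quantile normalization (0.736). The Decr1 call held under 12 of 17, and was lost without phenformin replicate 2 (0.0696), after quantile normalization (0.697), with an intensity trend and robust estimation (0.0613), over the mean of probe sets (0.0932) and with the RNA-end covariate (0.184). Eci2 and the peroxisomal reductase Decr2 were not called, at 0.16 ± 0.16 and -0.26 ± 0.19 in CLA and 0.39 ± 0.16 and 0.25 ± 0.19 in phenformin.

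Electron transfer genes were not called in either treatment. Etfa and Etfb encode the subunits of the electron transfer flavoprotein and Etfdh its ubiquinone oxidoreductase. Etfa differed by 0.10 ± 0.15 in CLA and 0.34 ± 0.15 in phenformin, Etfdh by -0.03 ± 0.11 and 0.26 ± 0.11, and Etfb by -0.36 ± 0.14 and -0.21 ± 0.14. Etfb was at 12.19, 12.40 and 11.95 in LA and at 11.62, 11.86 and 11.96 in CLA, where LA replicate 3 alone overlapped with CLA. Without that array its difference was -0.48 ± 0.14 in CLA (adjusted p = 0.0419), and after quantile normalization -0.70 in CLA and -0.58 in phenformin (adjusted p = 0.00319 and 0.00964). Etfa, its partner, also turned to -0.24 and -0.04 under that scaling, without passing. The difference between the subunits was not tested.

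Among those of the 31 genes that steer fuel choice, Pdk4 and Acot2 were called against LA. Pdk4, the kinase that inhibits pyruvate dehydrogenase and so spares glucose when fat is burned, was at 8.58, 8.62 and 7.98 in LA, at 9.58, 9.98 and 9.81 in CLA and at 8.92, 8.85 and 8.72 in phenformin. CLA lay above both other groups on every array, with phenformin between. Pdk4 rose by 1.40 ± 0.18 in CLA (2.64-fold, adjusted p = 0.000464) and differed by 0.43 ± 0.18 in phenformin (95% interval 0.04 to 0.83, adjusted p = 0.14). Without LA replicate 3 these were 1.19 ± 0.14 (adjusted p = 0.00041) and 0.22 ± 0.14 (0.349). The other measured kinases of this family were not called higher in CLA. Pdk1, at 9.21 ± 0.51 in LA, fell by 1.39 ± 0.23 (adjusted p = 0.00226) and Pdk3 by 0.44 ± 0.12 (0.0309). Pdk2 was not called (0.45 ± 0.29, adjusted p = 0.342), and in phenformin none of them was. Acot2, a mitochondrial thioesterase that frees long-chain fatty acids from acyl-CoA, was at 9.17, 8.98 and 8.63 in LA, at 11.18, 11.39 and 10.26 in CLA and at 11.12, 11.15 and 10.40 in phenformin. The treated arrays all lay above LA, and replicate 3 was lowest in every group. Acot2 rose by 2.02 ± 0.30 in CLA (4.05-fold, adjusted p = 0.0011) and by 1.97 ± 0.30 in phenformin (3.91-fold, adjusted p = 0.00139), the largest rise of the 31 genes in CLA. Its dimmer probe set gave 3.51 ± 0.53 and 3.25 ± 0.53 (11.4-fold and 9.49-fold), so the size of the rise depends on the probe set. Acot2 has close paralogs, and whether its probe sets also bind their transcripts was not examined here. Acot1, the nearest, lay at 3.48 to 4.13 on all arrays by its own probe set. The upstream windows of Pdk4, at chr6:5496279-5496528 on the minus strand, and Acot2, at chr12:83987611-83987860 on the plus strand, are printed as above, with the TGACG core in capitals.
Pdk4: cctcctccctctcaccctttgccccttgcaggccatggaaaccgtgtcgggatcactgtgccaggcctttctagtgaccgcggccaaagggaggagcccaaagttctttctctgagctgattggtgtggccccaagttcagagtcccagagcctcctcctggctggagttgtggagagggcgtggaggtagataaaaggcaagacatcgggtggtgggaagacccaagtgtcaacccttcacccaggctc
Acot2: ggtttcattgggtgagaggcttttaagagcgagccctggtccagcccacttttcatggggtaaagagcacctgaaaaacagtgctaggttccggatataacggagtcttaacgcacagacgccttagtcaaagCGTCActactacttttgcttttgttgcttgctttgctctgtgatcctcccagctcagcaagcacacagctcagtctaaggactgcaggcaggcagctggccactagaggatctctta

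Ucp3, a protein of the uncoupling family of the inner mitochondrial membrane, was dim and not called by its brighter probe set, with -0.55 ± 0.19 in CLA (adjusted p = 0.0867) and -0.60 ± 0.19 in phenformin (0.0637). Its values were 6.0, 5.70 and 6.26 in LA, 5.31, 5.72 and 5.29 in CLA and 5.52, 5.61 and 5.05 in phenformin. The other Ucp3 probe set was called lower in CLA (-0.51 ± 0.13, adjusted p = 0.0237). Ucp3 was called lower in both treatments over the mean of its probe sets (adjusted p = 0.0118 and 0.025) and after quantile normalization (0.0397 and 0.0351), and in phenformin also without dim probe sets (0.0462) and without LA replicate 2 (0.0444).

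**Figure D2:**
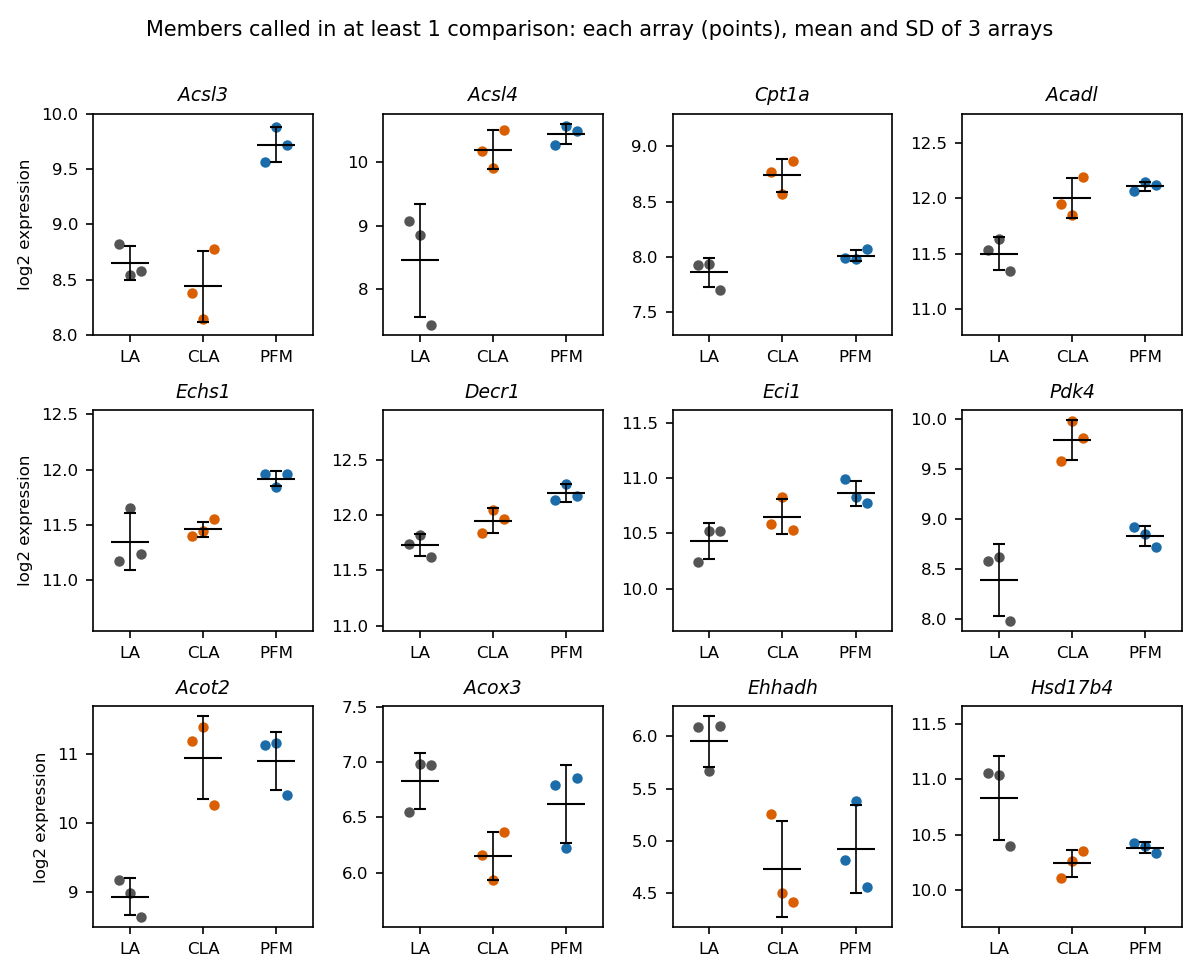
Log2 expression (y axis) of the 12 genes called in at least 1 comparison, on each LA, CLA and phenformin (PFM) array, with a scale of its own per gene; points are arrays and black marks are mean ± SD of 3 arrays. Cpt1a and Pdk4 stand out in CLA alone, Acsl3 in phenformin alone, and Acsl4 and Acot2 in both.

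The peroxisomal genes were mostly below LA. All 6 had a negative difference in CLA, with a median of -0.49 against 0.15 for the 20 mitochondrial genes, and 3 of the 6 were called lower, against 0 of the 20 and 7.58% of all genes. In phenformin the medians were -0.23 and 0.33, with 4 of 6 negative and 1 called lower, against 0 of 20 and 5.11% of all genes. After quantile normalization 14 of the 20 mitochondrial genes were negative in CLA too, with 3 called lower, beside all 6 peroxisomal genes with 4 called lower. In phenformin 11 of the 20 were then negative with 3 called lower, beside 4 of the 6 with 3 called lower. Over the mean of probe sets Acaa1a was positive in CLA (0.23 ± 0.21), and in phenformin 3 peroxisomal genes were positive and 3 negative. The further pathway genes described below did not show the same split, with 9 of 22 mitochondrial and 6 of 19 peroxisomal genes called lower in CLA. The difference between the organelles was not tested. Ehhadh, the peroxisomal bifunctional enzyme and a classical target of PPAR alpha in liver, was at 6.09, 5.67 and 6.10 in LA, at 5.26, 4.50 and 4.42 in CLA and at 4.82, 5.38 and 4.56 in phenformin. No treated array reached the LA arrays. Ehhadh fell by 1.23 ± 0.26 on the log2 scale in CLA (2.34-fold lower, adjusted p = 0.00851) and by 1.03 ± 0.26 in phenformin (2.05-fold lower, adjusted p = 0.0202). The phenformin call was lost without LA replicate 1 or 3 or phenformin replicate 1 or 3 (adjusted p = 0.0548 to 0.0745), and under the RNA-end covariate the differences were -0.72 and -0.50 (0.238 and 0.481). Its upstream window, at chr16:21787835-21788084 on the minus strand, carries the TGACG core once.
Ehhadh: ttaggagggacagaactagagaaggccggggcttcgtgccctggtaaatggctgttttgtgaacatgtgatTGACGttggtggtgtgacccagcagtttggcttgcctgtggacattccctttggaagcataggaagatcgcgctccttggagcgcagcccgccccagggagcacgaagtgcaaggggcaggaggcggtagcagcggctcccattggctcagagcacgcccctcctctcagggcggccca

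Hsd17b4, the multifunctional enzyme that hydrates and dehydrogenates branched and very long chains, was at 11.06, 11.04 and 10.40 in LA, at 10.11, 10.26 and 10.35 in CLA and at 10.42, 10.40 and 10.33 in phenformin. It fell in CLA by 0.59 ± 0.17 (1.51-fold lower, adjusted p = 0.0394) and differed by -0.45 ± 0.17 in phenformin (adjusted p = 0.108). LA replicate 3 lay nearer the treated arrays than the other LA arrays, and without it Hsd17b4 was called in both treatments (-0.81 ± 0.11 and -0.67 ± 0.11, adjusted p = 0.00113 and 0.00341). Acox3, an acyl-CoA oxidase of branched chains, was at 6.55, 6.98 and 6.97 in LA and at 6.16, 5.93 and 6.37 in CLA. It fell by 0.68 ± 0.20 in CLA (1.60-fold lower, adjusted p = 0.0395) and differed by -0.21 ± 0.20 in phenformin, while a second Acox3 probe set gave 0.04 ± 0.13 and 0.08 ± 0.13. Both CLA calls were fragile: the Hsd17b4 call held under 6 of 17 alternatives (it was lost without LA replicate 1 or 2, CLA replicate 1 or 2, or any 1 of the phenformin replicates, adjusted p = 0.0522 to 0.142, and with the replicate number as a block, 0.0518), and the Acox3 call under 11 (lost without LA replicate 2 or 3, CLA replicate 1 or 2, or phenformin replicate 1, 0.0541 to 0.147). Acaa1a, a peroxisomal thiolase, and Crot, which makes medium-chain acylcarnitines for export, were not called, at -0.28 ± 0.13 and -0.38 ± 0.21 in CLA and -0.24 ± 0.13 and 0.32 ± 0.21 in phenformin. After quantile normalization Acaa1a was called lower in both (-0.42 ± 0.12 and -0.47 ± 0.12, adjusted p = 0.0338 and 0.0208). The probe sets of Acaa1a disagreed in sign, and a near-identical paralog, Acaa1b, is described below.

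Phenformin and CLA were then set against each other, a difference to which no LA value contributes, although the LA arrays enter the estimate of its spread. Of the 31 genes 1 was called higher in phenformin (Acsl3) and 2 lower (Cpt1a and Pdk4), against 3.95% and 2.35% of all genes. Without LA replicate 3 Crot was called higher as well. Acsl3 was higher in phenformin by 1.28 ± 0.17 (2.43-fold, adjusted p = 0.00253), and this held under all 17 alternatives (highest adjusted p 0.0188). Cpt1a was lower by 0.72 ± 0.12 (log2 difference -0.72, 1.65-fold, adjusted p = 0.00796), a call lost only when its 3 probe sets were averaged (-0.48 ± 0.19, adjusted p = 0.161). Pdk4 was lower with a log2 difference of -0.97 ± 0.18 (1.95-fold, adjusted p = 0.0139), and this call was lost without CLA replicate 2, phenformin replicate 2 or phenformin replicate 3 (0.0662, 0.0567 and 0.0507).

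For genes that moved in both treatments the direct difference was not called, and the intervals say how far they could still differ. Acsl4 had a phenformin minus CLA interval of -0.54 to 1.03 and Acot2 of -0.71 to 0.61, so both intervals reach well beyond 0 on either side. One of the dimmer Acsl4 probe sets was called higher in phenformin (0.93 ± 0.23, adjusted p = 0.0493). Acadl had an interval of -0.16 to 0.39 and Ehhadh of -0.38 to 0.76. Over the 31 genes the median difference was 0.19, with 24 positive, against a median of -0.03 over all genes, and all 6 peroxisomal genes were on the positive side, at 0.03 to 0.70. Echs1, Crot and Decr2 had positive differences that missed the threshold, at 0.45 ± 0.14, 0.70 ± 0.21 and 0.51 ± 0.19 (adjusted p = 0.105, 0.0975 and 0.188). A second Decr1 probe set was called higher in phenformin than in CLA (0.59 ± 0.13, adjusted p = 0.0338), and the brightest was not (0.25 ± 0.11, adjusted p = 0.299).

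**Figure D3:**
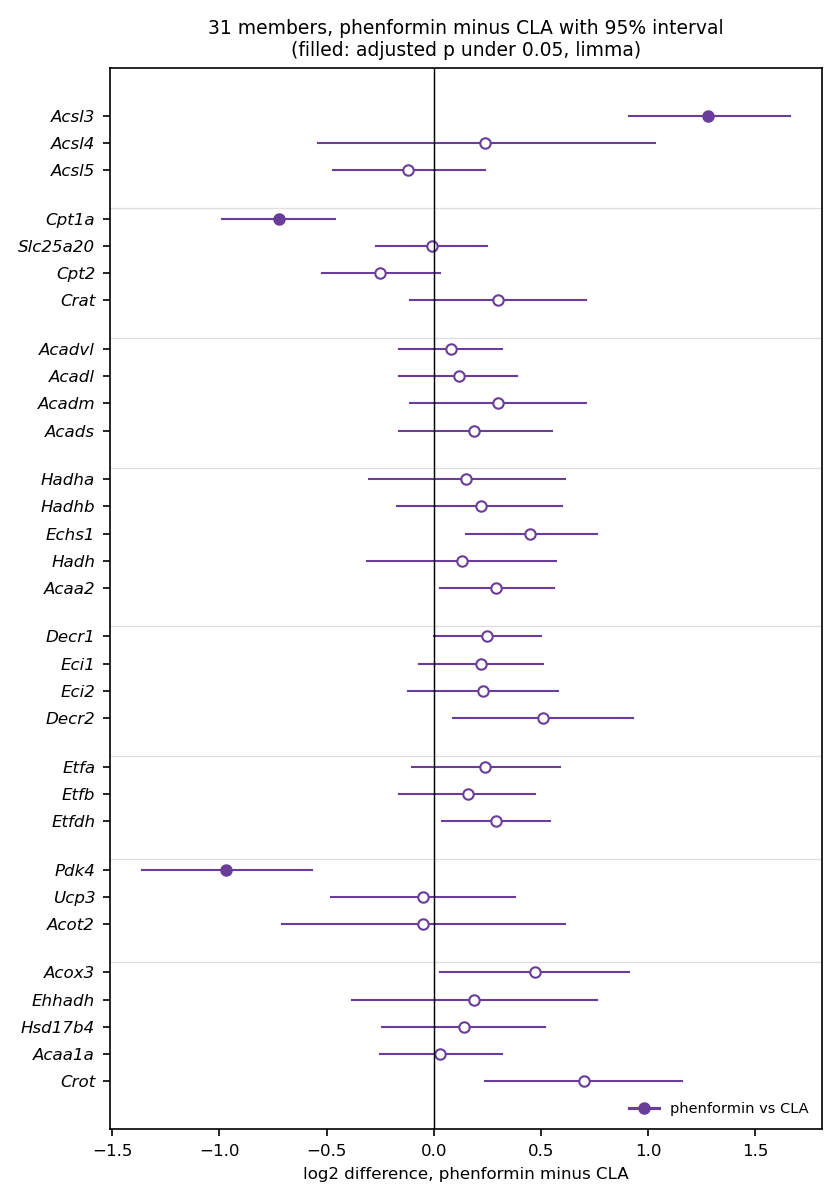
Log2 difference between phenformin and CLA (x axis) for the 31 genes (y axis, grouped by role), with 95% intervals from limma; filled points had an adjusted p under 0.05. Acsl3 lies at 1.28, Cpt1a at -0.72 and Pdk4 at -0.97, and 24 of 31 points are above 0.

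Processing mattered most for the enzymes between these extremes. The plot of the 31 genes under 4 ways of processing shows 8 of the 20 mitochondrial genes crossing 0 after quantile normalization in each treatment. Over the 31 genes 10 uncalled differences from LA turned their sign under that setting in CLA, and 8 in phenformin. Calls were also gained there: Crat, Acaa2, Etfb, Ucp3 and Acaa1a were called lower in CLA, and Slc25a20, Etfb, Ucp3, Hsd17b4 and Acaa1a in phenformin.

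**Figure D4:**
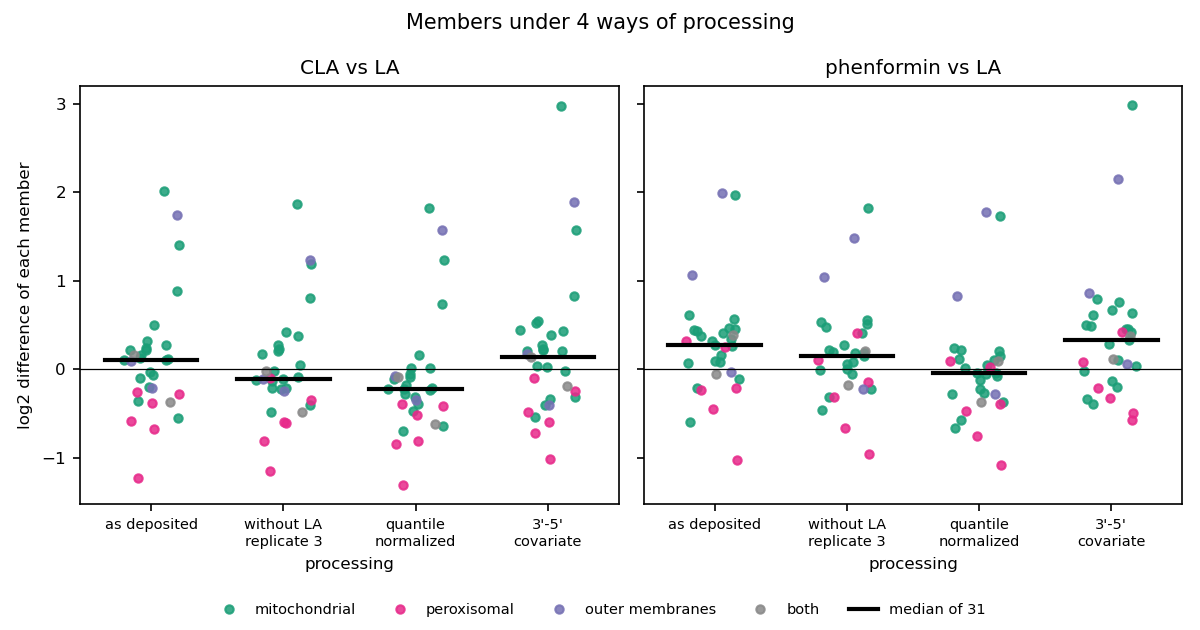
Log2 difference from LA of each of the 31 genes (y axis) in CLA and in phenformin under 4 ways of processing (x axis), coloured by compartment, with the median as a black bar. The median moves from 0.10 to -0.23 in CLA and from 0.27 to -0.04 in phenformin between the deposited values and quantile normalization.

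Beside the 31 genes, 67 further genes of the pathway and around it were measured from a list of 71. Among them were other mitochondrial and peroxisomal enzymes, not all of the spiral, carnitine supply and regulators. In CLA 4 rose and 28 fell (12.6% and 7.58% of all genes did), in phenformin 10 rose and 12 fell (13.7% and 5.11%), and between the treatments 13 were higher and 1 lower in phenformin (3.95% and 2.35%). The medians were -0.20, -0.02 and 0.23. Of the 13 regulators 10 fell and 1 rose in CLA, and 5 fell and 2 rose in phenformin.

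Acaa1b, a peroxisomal thiolase close to Acaa1a, was the most reduced gene of that list, at 9.19, 9.06 and 8.73 in LA, 6.16, 6.42 and 6.22 in CLA and 7.08, 7.25 and 6.58 in phenformin. It fell by 2.72 ± 0.18 in CLA (6.60-fold lower, adjusted p = 8.41e-06) and by 2.02 ± 0.18 in phenformin (4.07-fold lower, adjusted p = 7.63e-05). Acsf2, a mitochondrial acyl-CoA synthetase family member, rose from 7.23 ± 0.33 to 8.79 ± 0.36 in CLA and 8.87 ± 0.47 in phenformin (1.56 ± 0.26 and 1.64 ± 0.26). Acss2, which activates acetate, rose from 9.75 ± 0.02 to 10.42 ± 0.05 and 11.25 ± 0.14, and was higher in phenformin than in CLA by 0.83 ± 0.11 (adjusted p = 0.0024). Abcd2, a peroxisomal transporter of very long chains, fell in phenformin by 0.81 ± 0.20 and was lower there than in CLA, with a log2 difference of -1.16 ± 0.20. Acox2, the oxidase of bile acid side chains in liver, fell by 0.79 ± 0.17 in CLA and was higher in phenformin than in CLA by 1.05 ± 0.17 (adjusted p = 0.00797).

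Of the receptors and coactivators, Ppara, the PPAR that drives oxidation genes in liver, fell by 0.92 ± 0.20 in CLA and by 0.95 ± 0.20 in phenformin (adjusted p = 0.0114 and 0.00994), from a low level of 5.44 ± 0.10. Without CLA replicate 1 the CLA difference was -0.78 ± 0.22 (adjusted p = 0.0564). Ppard, the widely expressed PPAR, rose by 1.54 ± 0.26 in CLA and by 0.87 ± 0.26 in phenformin, and the difference between treatments did not pass (-0.67 ± 0.26, adjusted p = 0.216). Pparg, the brightest PPAR here (12.17 ± 0.41 in LA), fell by 1.25 ± 0.19 in CLA (adjusted p = 0.00122). Its difference in phenformin was -0.58 ± 0.19 (adjusted p = 0.0619). The coactivator Ppargc1b, at 9.78 ± 0.17 in LA, fell by 1.45 ± 0.14 in CLA and 0.92 ± 0.14 in phenformin (adjusted p = 6.67e-05 and 0.00124). Ppargc1a, the coactivator of mitochondrial gene programmes, was at 6.51, 6.42 and 6.38 in LA, 6.06, 5.44 and 5.95 in CLA and 7.50, 8.0 and 7.57 in phenformin. The groups did not overlap, and Ppargc1a was higher in phenformin than in CLA by 1.87 ± 0.18 (3.67-fold, adjusted p = 0.0004) and than in LA by 1.26 ± 0.18 (adjusted p = 0.00106). Its fall in CLA, by 0.62 ± 0.18 (adjusted p = 0.0422), was lost without any 1 of the LA replicates, CLA replicate 2, or phenformin replicate 1 or 3 (0.0522 to 0.14), with the replicate number as a block (0.0738), in the fit of LA and CLA alone (0.0532), with the RNA-end covariate (0.227) and over the mean of its probe sets (-0.30 ± 0.16, adjusted p = 0.213).

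**Figure D5:**
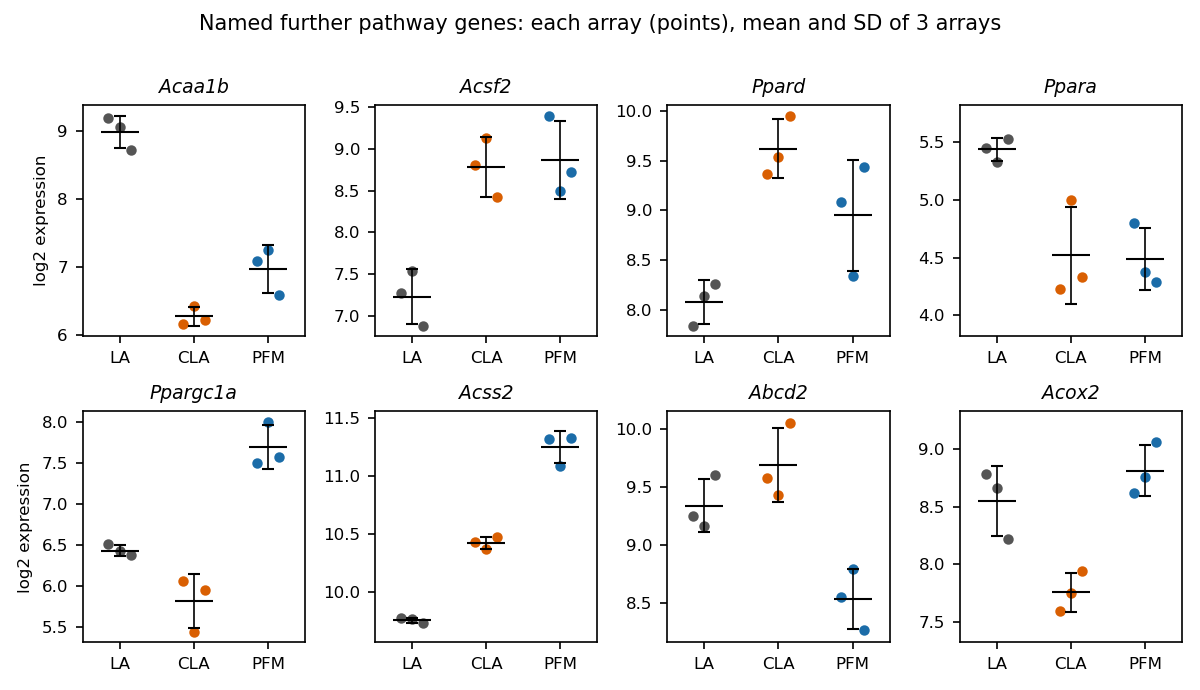
Log2 expression (y axis) of 8 of the named further genes on each LA, CLA and phenformin (PFM) array. Points are arrays and black marks are mean ± SD of 3 arrays. Acaa1b is low in both treatments, Ppargc1a is highest in phenformin and lowest in CLA, and Acss2 rises from LA to CLA to phenformin.

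Upstream windows of 250 bases were found in RefSeq for 27 of the 31 genes and searched on both strands. The nuclear receptor core AGGTCA occurred in 5 of the 27 (Acadm, Acadvl, Cpt1a, Echs1 and Ucp3) and in 14% of all 32851 windows, and the core TGACG of cAMP response elements in 7 (Acadm, Acot2, Acox3, Acsl4, Ehhadh, Etfa and Etfdh) and in 17.8%. The direct repeat of AGGNCA spaced by 1 base that PPARs bind, which can overlap the nuclear receptor core, was in 0 of the 27 and 0.338% of all windows. The element TCAAGGTCA of the estrogen-related receptors, which contains the same core, was in 0 and 0.387%, the full cAMP response element TGACGTCA in 0 and 1.55%, and the E-box CACGTG in 0 and 6.02%. Of the 6 windows printed above, those of Pdk4 and Acsl3 held neither core.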

How the data were processed

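Expression was measured on 9 Affymetrix mouse arrays, 3 per group. The authors made the deposited log2 values per probe set by RMA, and the submitters' processing notes name R 2.9.0. The authors also deposited limma tables of log2 fold changes and p-values, used only as a check: with controls included, the same fit called the same 7445, 7405 and 2038 probe sets as the authors' deposited tables, and the log2 fold changes differed by at most 4.6e-08.

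Here 64 control probe sets were left out of 45101, and limma 3.58.1 in R 4.3.3 (lmFit, eBayes, 2-sided contrasts, 1 fit over all arrays) was run on 45037. Single symbols were known for 34945 of these, several for 932 and none for 9160; only the first were named. The background level of an array was the 95th percentile over 27 probe sets for bacterial transcripts (3.68 to 4.20). The fit was tested on simulated data with independent noise for each probe set and array. Those data hold none of the shifts between arrays and groups described above, so that test cannot speak to them. The number of arrays limits the precision.

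All 31 genes are named, in order of role. Of the further pathway genes the 3 with the largest called change per comparison are named, besides Ppara and Ppargc1a. Acot1, Cpt1c, Pdk1, Pdk2, Pdk3, Pparg and Ppargc1b were added after their values were seen. The genes, lists, tests and alternatives were chosen with earlier results of these data known. Same-numbered CLA and phenformin arrays had correlations of deviations of 0.29, 0.092 and 0.582 (replicates 1 to 3). Those with LA were negative, at -0.285 to -0.05, and arrays of other numbers ranged from -0.532 to 0.386. The pyruvate carboxylase 3' minus 5' difference fell from replicate 1 to 3 in every group. What a number stands for is not in the labels. The main fit therefore did not take the numbers as pairs, and a replicate block was among the alternatives. Promoter windows are from RefSeq (GRCm38.p6). Tables and plots were made with Python 3.11.15, pandas 2.3.3 and matplotlib 3.10.9.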

Additional observations from a re-analysis of the deposited data

How the results depend on the processing

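Each count and median was recomputed under 17 alternatives. Leaving out 1 array at a time gave 4 to 5 genes called higher and 1 to 3 lower in CLA vs LA, 5 to 7 and 0 to 2 in phenformin vs LA, and 1 to 2 and 1 to 2 in phenformin vs CLA, with medians of -0.11 to 0.20, 0.15 to 0.37 and 0.15 to 0.22. Of all 18193 genes these fits called 1644 to 2482 higher and 818 to 1725 lower in CLA vs LA. The ranges were 1793 to 2498 and 530 to 1203 in phenformin vs LA, and 233 to 1084 and 227 to 634 in phenformin vs CLA. The counts of lower genes in CLA vs LA fell to 1 without LA replicate 2, CLA replicate 1, CLA replicate 2 or phenformin replicate 1, and LA replicate 3 alone gave both the lowest median in CLA vs LA (-0.11) and in phenformin vs LA (0.15). Quantile normalization gave 8 lower and a median of -0.23 in CLA vs LA, and 3 higher, 6 lower and a median of -0.04 in phenformin vs LA. Its counts over all genes are given above. The RNA-end covariate, which differs between the groups itself, gave 3 higher and 1 lower in CLA vs LA and 1 higher and 0 lower in phenformin vs LA. Calls over all genes also dropped with it. In CLA vs LA they went from 2296 higher and 1379 lower to 1580 and 698, and in phenformin vs LA from 2493 and 929 to 1308 and 343. In phenformin vs LA, 2 were lower without dim probe sets and 3 over the mean of probe sets (867 of 12011 and 989 of 18193 genes in all). In phenformin vs CLA, 2 were higher over the mean of probe sets and in the fit of the 2 groups alone (937 and 797 of all genes). There 1 was lower over the mean of probe sets (574 of all genes). Over all genes the replicate block called 2353 higher and 1290 lower in CLA vs LA, and 2484 and 861 in phenformin vs LA. Of the 31 genes it gave 5 higher and 2 lower in CLA vs LA, where Hsd17b4 lost its call, and 6 higher and 1 lower in phenformin vs LA, where Eci1 did. It moved no other call of the 31 genes. The SE of the Acot2 rise in CLA was 0.15 with the block and 0.30 without it. The Hsd17b4 difference in CLA was -0.59 with the block and without it. What same-numbered arrays share is not in the labels, and what the lost calls reflect was not tested. No called difference turned its sign under any of the 17 alternatives. Why quantile normalization and LA replicate 3 move the small differences was not tested.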
